A study of Mus musculus with 6 samples.

Results

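This account follows 36 genes of nucleolar ribosome biogenesis, found on the array by gene symbol from a list of names. Each gene stands on the array with its probe set of the highest mean level over the 6 arrays, and all 36 were measured, out of 18193 genes named on the array. The arrays hold RNA from cultured mouse mesenchymal stem cells, bought from a commercial supplier, whose medium carried 1 µM rosiglitazone, 5 µg/ml insulin, 100 µM 3-isobutyl-1-methylxanthine and 1 µM dexamethasone, given once more 48 h ahead of exposure. The irradiated group (3 arrays) had been under a pulsed broadband terahertz source near 10 THz for 2 h, with 35 fs pulses. The repetition rate was 1 kHz, the pulse energy 1 µJ and the power 1 mW/cm². The control group (3 arrays) received the same medium and temperature, 26 to 27 °C, without radiation. Each of 3 independent experiments supplied 1 irradiated culture and 1 control that stood next to it. The comparison asks whether transcript levels under radiation depart from those of the neighbouring control.

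Ribosomes are built in the nucleolus. RNA polymerase I copies the ribosomal DNA into a long precursor, small nucleolar ribonucleoproteins guide chemical marks onto it (the box C/D type 2'-O-methylation, the box H/ACA type pseudouridine), and large sets of assembly factors cut, fold and export the small (40S) and large (60S) subunits. The genes of this process are known to be expressed together in growing and dividing cells, and many are targets of the transcription factor MYC.

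The upstream sequence of 4 members is shown because the results turn on them or because they carry the motif searched for. Nop56 is the one member whose brightest probe set was called between experiments, and Ncl is a member whose brightest probe set stayed nearly flat. Imp4 and Nop2 are the members whose 250 bases before the start hold CACGTG, the E-box that MYC and its partner MAX can bind. Sequences are from RefSeq, build GRCm38.p6, 5′ to 3′ on the gene's strand. Capitals mark CG pairs in the first pair of sequences, which span the 250 bases before the start, and the E-box in the second pair, which give 30 bases on either side of it. Nop56 lies at chr2:130274162-130274411 on the plus strand, Ncl at chr1:86359456-86359705 on the minus strand, Imp4 at chr1:34439678-34439743 on the plus strand and Nop2 at chr6:125131793-125131858 on the plus strand.
Nop56: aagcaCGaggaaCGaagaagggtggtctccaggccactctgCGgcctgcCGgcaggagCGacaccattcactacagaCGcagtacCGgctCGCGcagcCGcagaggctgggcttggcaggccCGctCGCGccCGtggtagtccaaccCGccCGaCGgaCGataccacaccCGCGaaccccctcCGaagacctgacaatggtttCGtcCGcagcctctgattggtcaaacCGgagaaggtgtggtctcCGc
Ncl: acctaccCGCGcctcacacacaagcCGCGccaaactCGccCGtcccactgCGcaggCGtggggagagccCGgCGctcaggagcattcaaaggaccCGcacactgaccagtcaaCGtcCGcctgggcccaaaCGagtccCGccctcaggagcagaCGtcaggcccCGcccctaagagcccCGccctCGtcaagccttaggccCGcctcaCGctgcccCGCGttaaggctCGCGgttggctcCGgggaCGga
Imp4: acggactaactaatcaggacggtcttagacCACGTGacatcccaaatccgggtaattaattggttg
Nop2: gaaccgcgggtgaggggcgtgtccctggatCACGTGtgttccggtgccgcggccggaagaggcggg
The Nop56 stretch holds 25 CG pairs and the Ncl stretch 27, and a link between CG pairs and levels was not tested. An entry was found for 31 of the 36 members, and none for Npm1, Fbl, Rrp12, Bop1 and Rrs1. The exact E-box, which reads the same on both strands, was found in 2 of these 31 members (6.45%) and in 8.73% of the 14453 genes on the array that have an entry. The median number of CG pairs in the same 250 bases was 16 in members, from 0 in Nop10 to 36 in Gnl3 and Noc4l, and 14 in the genes on the array. A match describes letters only, and Nop56 carries no exact E-box in this window.

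The deposited values are log2 levels that had already been brought to a common distribution, with array medians between 4.82 and 4.87, so every difference is relative to the other transcripts. A level of one probe set is not set against that of another gene here, since probes differ in brightness. Control culture 3 stood apart on the hybridization spike-ins, with a mean of 11.63 on 18 probe sets against 11.06 to 11.25 on the other 5 arrays. Of 8 stromal markers measured 7 had means above every array median, and Thy1, a marker used for mesenchymal stem cells, averaged 3.84, below them. All 9 fat-cell markers and all 12 macrophage and leukocyte markers measured also had means above the array medians. In bulk RNA fewer cells of a type and less RNA per cell cannot be told apart.

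For irradiation no member passed the test, and most members were slightly higher in the irradiated culture. The limma fit with the experiment as a block called 0 of 36 members at an adjusted p of 0.05, where it called 0% of all genes, and 0 members had an unadjusted p under 0.05, against 4.14% of genes. On the log2 scale 30 members had a positive difference, 5 a negative one and Noc3l was at 0.00, with a median of 0.04 and a range from -0.04 (Ddx21) to 0.20 (Dkc1). Over all genes the median was 0.0033 and 50.5% were positive. With each array centred on its median, 24 members were positive and 12 negative (median 0.02, all genes -0.02), and with quantile normalization 32 were positive and 4 negative.

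The differences were small enough to be bounded. The 95% interval of the irradiated minus control difference lay inside 1.5-fold in both directions for all 36 members. The same held for 17753 of the 18193 genes, and for 7754 of the 7869 in the members' range of levels. This bound therefore does not set the members apart. Medians in experiments 1, 2 and 3 were 0.045, 0.01 and 0.09 for members, and 0.01, 0.00 and 0.00 for all genes. In experiment 3 the irradiated culture was higher for 32 of the 36, against 49.1% of all genes. In experiment 2 it was higher for 20 members, against 48.1% of genes. Without replicate 3 the member median was 0.0175. A total of 13 members were higher in the irradiated culture of all 3 pairs, a pattern seen in 12.4% of all genes and in 12.1% of genes in the members' range of levels, and 0 were lower in all 3, against 11.6%.

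**Figure D1:**
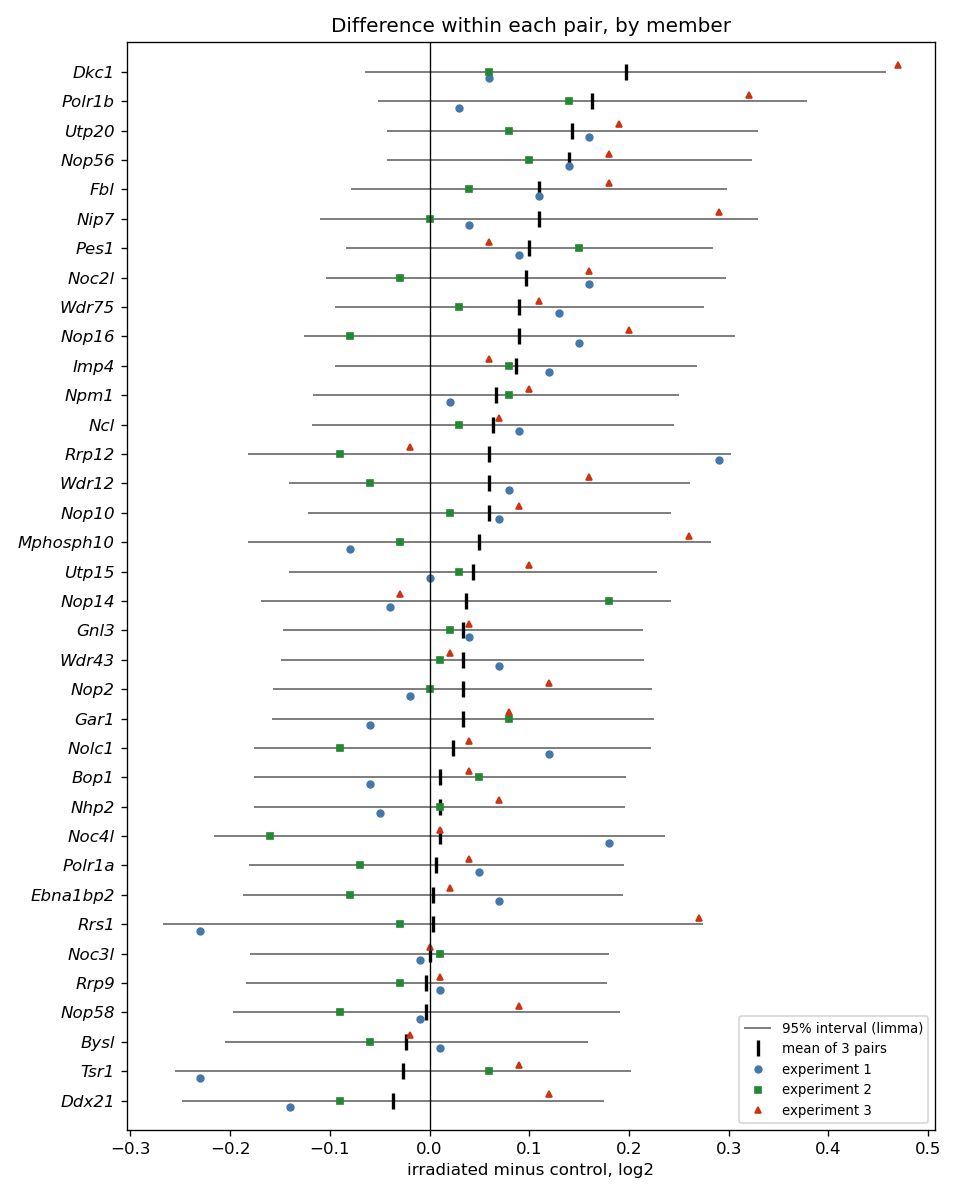
Irradiated minus control difference of each of the 36 members (log2, horizontal axis), sorted by the mean of the 3 pairs (black bar), with limma's 95% interval (grey line) and the difference in each experiment (coloured points). All intervals include 0, the means run from -0.04 for Ddx21 to 0.20 for Dkc1, and the red triangles of experiment 3 lie at or above 0 for 33 members.

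Among the nucleolar organisers, the brightest probe sets of Ncl and Npm1 had irradiated levels above all control levels, by very little. Ncl encodes nucleolin, an RNA-binding protein that opens ribosomal chromatin and binds the precursor RNA, and it stood at 11.91, 11.94 and 11.88 in controls and 12.00, 11.97 and 11.95 in irradiated cultures of experiments 1, 2 and 3. The groups did not overlap, with pair differences of 0.09, 0.03 and 0.07. The mean difference of 0.06 ± 0.07 (limma's SE, n = 3 pairs) did not pass (limma, adjusted p = 0.953). That SE draws on the spread of all probe sets and is not the scatter of the Ncl pairs alone. Npm1, nucleophosmin, a histone and ribosomal protein chaperone with many near-identical copies in the genome, stood at 12.63, 12.61 and 12.62 in controls and 12.65, 12.69 and 12.72 in irradiated cultures, a difference of 0.07 ± 0.08 (limma, adjusted p = 0.950). The other organisers were Nolc1, a scaffold of small nucleolar particles (0.02), Gnl3, the GTP-binding nucleostemin (0.03), and Ddx21, an RNA helicase (-0.04). Groups overlapped in their brightest probe sets. The dimmest probe set of Nolc1 did not overlap, at 7.13, 7.22 and 7.13 in controls and 7.29, 7.33 and 7.31 in irradiated cultures. Its difference of 0.15 did not pass (limma, adjusted p = 0.929).

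Non-overlapping groups were also seen for the brightest probe sets of Fbl, Wdr75 and Imp4. In all, 5 of 36 members had every irradiated array above every control, against 3.31% of genes and 1.78% of genes in the members' range of levels, and 0 had the reverse, against 2.99% of genes. Fbl, fibrillarin, the methyltransferase of box C/D particles, stood at 10.45, 10.50 and 10.39 in controls and 10.56, 10.54 and 10.57 in irradiated cultures (difference 0.11 ± 0.08, limma adjusted p = 0.931). Imp4, a partner of the U3 particle that guides early cuts of the precursor, stood at 8.69, 8.69 and 8.65 in controls and 8.81, 8.77 and 8.71 in irradiated cultures (0.09 ± 0.07, limma adjusted p = 0.943). Wdr75, a subunit of the small-subunit processome, stood at 8.58, 8.63 and 8.54 in controls and 8.71, 8.66 and 8.65 in irradiated cultures (0.09 ± 0.08, limma adjusted p = 0.942). For all 5 genes the gap between the groups was no wider than a few hundredths of a log2 unit, and none passed. In every other probe set of these 5 genes the groups overlapped. The second one of Fbl stood at 9.77, 9.89 and 9.60 in controls and 9.83, 9.87 and 9.91 in irradiated cultures. Groups were also apart in a dimmer probe set of Nolc1 and of Noc4l, with irradiated cultures higher. They were apart the other way in the dimmest probe set of Ebna1bp2.

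Among the brightest probe sets of the members, Polr1b and Dkc1 had the widest pair differences, and these came from experiment 3. Polr1b, the second-largest subunit of the polymerase, stood at 7.16, 7.10 and 6.82 in controls and 7.19, 7.24 and 7.14 in irradiated cultures, with pair differences of 0.03, 0.14 and 0.32 (mean 0.16 ± 0.09, limma adjusted p = 0.929). Polr1a, the largest subunit, was at 0.01 ± 0.08, from 7.42, 7.48 and 7.36 in controls and 7.47, 7.41 and 7.40 in irradiated cultures, which overlap. Its next probe sets were at 0.25 (pairs -0.04, 0.41 and 0.37) and 0.18 (pairs -0.04, 0.05 and 0.53). Its dimmest ones were at -0.03 and 0.15, and none passed. Dkc1, dyskerin, the pseudouridine synthase of box H/ACA particles and a part of telomerase, had pair differences of 0.06, 0.06 and 0.47. Its control level was 9.51, 9.36 and 8.92 and its irradiated level 9.57, 9.42 and 9.39, so the groups overlap and the widest gap is at the low control of experiment 3. The mean difference was 0.20 ± 0.11 (limma, adjusted p = 0.929). The other core proteins of these particles, Nhp2, Nop10 and Gar1, were at 0.01, 0.06 and 0.03.

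Most small-subunit and large-subunit assembly factors had small positive differences. Of the 11 small-subunit members 9 were positive and 2 negative (median 0.04), from -0.03 for the GTPase-like factor Tsr1 to 0.14 for Utp20, a late-acting scaffold. Utp20 had the lowest unadjusted p of all members, 0.108 by limma, with 8.57, 8.54 and 8.36 in controls and 8.73, 8.62 and 8.55 in irradiated cultures. Its groups overlap at one value pair, the control of experiment 1 and the irradiated culture of experiment 3. Of the 10 large-subunit members 9 were positive and 0 negative (median 0.05). Experiment 2 differed from that picture for the large subunit, with 3 of its 10 members positive and 5 negative (median -0.015), and 7 of the 11 small-subunit members positive (median 0.03), and the difference between the roles was not tested. Pes1, Bop1 and Wdr12, which form the PeBoW complex needed for 60S maturation, were at 0.10, 0.01 and 0.06. Pes1 stood at 9.52, 9.34 and 9.34 in controls and 9.61, 9.49 and 9.40 in irradiated cultures, higher in each pair with overlapping groups (limma, adjusted p = 0.933). Nip7, which acts late on the 60S precursor, was at 0.11 with pair differences of 0.04, 0.00 and 0.29. Rrs1, which helps place the 5S ribonucleoprotein, shows how a mean near 0 can hide spread: its pair differences were -0.23, -0.03 and 0.27.

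The remaining assembly factors had pair differences of both signs or near 0. Rrp12, which helps export both subunits, stood at 7.10, 7.17 and 7.11 in controls and 7.39, 7.08 and 7.09 in irradiated cultures, so the irradiated culture of experiment 1 alone is high. Mphosph10, which binds the U3 particle together with Imp4, stood at 8.31, 8.36 and 8.22 in controls and 8.23, 8.33 and 8.48 in irradiated cultures, high only in the irradiated culture of experiment 3. Noc4l, a small-subunit factor that works with Nop14, had pair differences of 0.18, -0.16 and 0.01 in its brightest probe set, which point both ways. A dimmer probe set of Noc4l had 0.22, 0.01 and 0.19. Nop14 itself was at 0.04, Wdr43 and Utp15, which share a subcomplex of the processome with Wdr75, were at 0.03 and 0.04, and Bysl was at -0.02. Among 60S factors, Nop16 and Noc2l were at 0.09 and 0.10 with experiment 2 negative in each, Nop2, a methyltransferase of 28S ribosomal RNA, was at 0.03, and Ebna1bp2 was at 0.00. Of the box C/D proteins other than Fbl and Nop56, Nop58 and Rrp9 were both at 0.00.

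Control culture 3 alone carried the lowest level of the 6 arrays for 18 of the 36 members. The same array alone was lowest for 25.2% of all genes and for 30.6% of genes in the members' range of levels. It was also lowest for 70 of the 138 other ribosome biogenesis genes and for 10 of 11 proliferation markers. It was highest for 0 members, against 3892 of the 18193 genes. Its spike-ins were the brightest, and whether that bears on these levels was not tested. Dkc1, Rrs1 and Polr1b lay farthest below their own means on it, and Nip7 stood at 8.93 there and between 9.17 and 9.33 on the other 5. The mean over the 36 members was 8.99 in control culture 3 and between 9.07 and 9.11 on the other arrays. Without experiment 3 the irradiated minus control difference of Dkc1 was 0.06 in place of 0.20, and neither passed.

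**Figure D2:**
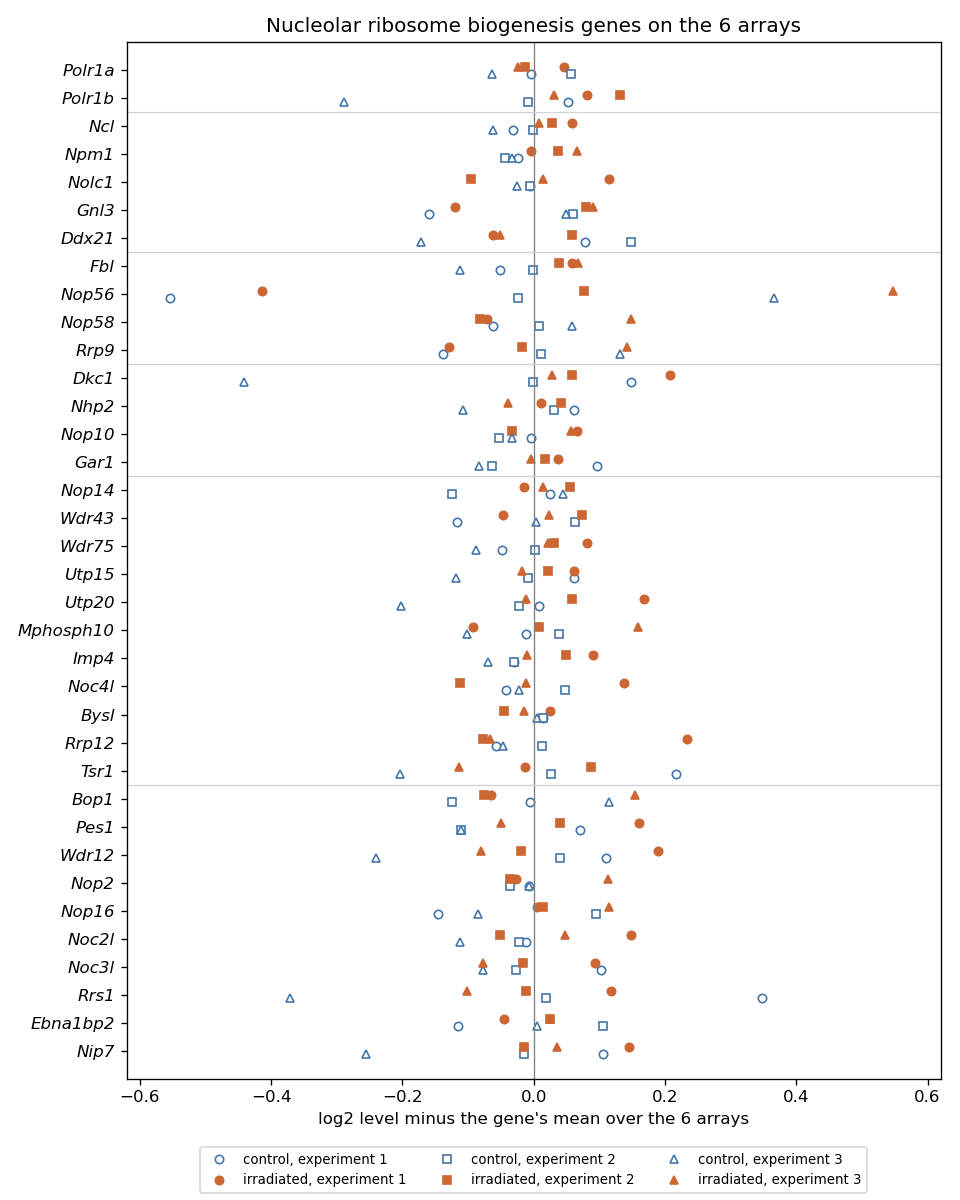
Log2 level of each of the 36 members on each array minus the gene's own mean over the 6 arrays (horizontal axis), with members grouped by role and grey lines between roles; open symbols are controls, filled symbols irradiated cultures, and circles, squares and triangles are experiments 1, 2 and 3. Nop56 spreads over 1.10 log2 units, and the open triangle of control culture 3 lies far left for Dkc1, Rrs1, Polr1b and Nip7.

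Markers of dividing cells had the same sign as most members. All 11 measured proliferation markers had positive differences, with medians of 0.06, 0.08 and 0.47 in experiments 1, 2 and 3, and the log2 of their summed level ran from 13.15 to 13.28 in controls and from 13.28 to 13.41 in irradiated cultures. All 9 measured fat-cell markers were negative, with a summed level from 15.81 to 15.95 in controls and from 15.73 to 15.78 in irradiated cultures. Of 12 macrophage and leukocyte markers 10 were positive, with a summed level from 15.48 to 15.63 and from 15.58 to 15.65. None of these markers passed the test for irradiation, and their part in the members' offset was not tested.

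Nop56 was the one member called between experiments with the brightest probe set of each gene. Other probe sets or settings also called Bop1 and Rrs1. Nop56 encodes a core protein of box C/D particles, and introns of the gene carry small nucleolar RNAs, as do those of Ncl, Nop58 and Dkc1. Its control and irradiated levels were 9.89 and 10.03 for experiment 1, 10.42 and 10.52 for experiment 2, then 10.81 and 10.99 for experiment 3. Every array of one experiment lies apart from every array of another, while the 2 cultures within an experiment differ by 0.10 to 0.18. Experiment 3 was higher than experiment 1 by 0.94 ± 0.09 on the log2 scale, 1.92-fold, with a 95% interval from 0.72 to 1.16 (limma, adjusted p = 0.00755). That is 1 of 36 members called higher and 0 called lower, where 2.07% of genes were called higher and 1.07% lower, and 3.46% and 1.39% of genes in the members' range of levels.

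The other contrasts of Nop56 did not pass with these settings. Experiment 2 was higher than experiment 1 by 0.51 ± 0.09 (limma, adjusted p = 0.130) and experiment 3 was higher than experiment 2 by 0.43 ± 0.09 (limma, adjusted p = 0.294). No member was called in either contrast, where 0.616% of genes were called higher and 0.033% lower for experiment 2 against 1, and 0.044% higher and 0% lower for experiment 3 against 2. An unadjusted p under 0.05 was seen for 1 member in the former, against 9.4% of genes, and for 2 in the latter, against 9.15%. These contrasts share arrays, and each experiment is a single culture event with 2 arrays, so the p-values compare these experiments only. With the brighter probe sets alone (mean at or above the median probe set) Nop56 also passed in experiment 2 against 1 (limma, adjusted p = 0.0454), and with an intensity trend it passed in all 3 contrasts.

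A second probe set of Nop56 gave the same picture. It stood at 9.04 and 9.06 in experiment 1, 9.67 and 9.72 in experiment 2, and 10.02 and 10.18 in experiment 3, and experiment 3 was higher than experiment 1 by 1.05 ± 0.10 (limma, adjusted p = 0.00614). Gapdh probe sets for the 3′ end read above those for the 5′ end by 0.19 and 0.23 log2 units on the arrays of experiment 1, while on the other 4 arrays this gap lay between -0.05 and -0.01. The same gap for Actb was 0.75 and 0.76 in experiment 1, 0.62 and 0.61 in experiment 2, and 0.72 and 0.62 in experiment 3, so it did not set experiment 1 apart to the same degree. RNA quality can move such gaps, and its part in the Nop56 result was not tested. The irradiated minus control difference of Nop56 was 0.14 ± 0.08 with the first probe set and 0.08 ± 0.08 with the second, and neither passed.

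**Figure D3:**
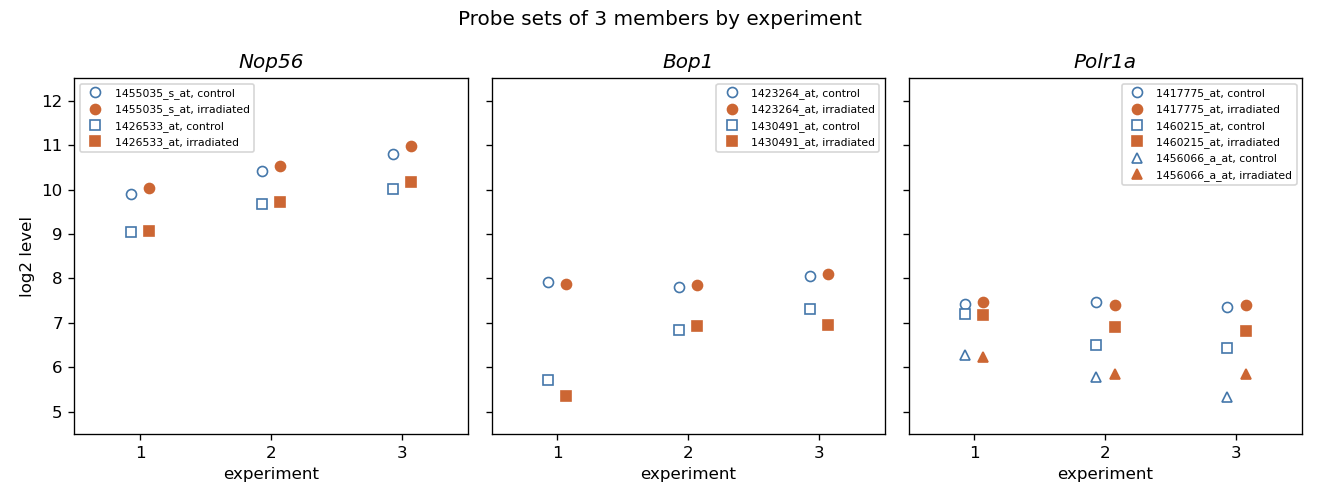
Log2 level (vertical axis) of the probe sets of Nop56, Bop1 and Polr1a with a mean level of at least 5, by experiment (horizontal axis); open symbols are controls, filled symbols irradiated cultures, and each marker shape is a probe set. Both Nop56 probe sets are highest in experiment 3, while the dimmer Bop1 and Polr1a probe sets move apart from the brightest one.

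Probe sets of other members disagreed. For Bop1 the probe set of the highest mean was nearly level, at 7.93 and 7.87 in experiment 1, 7.81 and 7.86 in experiment 2, and 8.05 and 8.09 in experiment 3. Its other probe set stood at 5.72 and 5.35, 6.83 and 6.94, and 7.31 and 6.95, and was higher in experiment 2 than in experiment 1 by 1.35 ± 0.14 (limma, adjusted p = 0.0253) and in experiment 3 by 1.59 ± 0.14 (limma, adjusted p = 0.00588). Which transcript forms each probe set of Bop1 reads was not tested, so no single direction is given for the gene. For Polr1a the brightest probe set differed by -0.07 between experiments 3 and 1, and the next ones by -0.57 ± 0.14 and -0.67 ± 0.15 (limma, adjusted p = 0.0947 and 0.0862). Of 27 members with several probe sets, 11 had both signs in this contrast and 14 had both signs for irradiation, and of all 76 probe sets of members 3 were called higher and 0 lower between experiments 3 and 1, where 1.87% of all probe sets were called higher and 1.18% lower.

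Most of the brightest probe sets of the members varied little, as did most of those of the rest of the pathway. The range over the 6 arrays was under 0.5 for 33 of 36 members (91.7%) and for 77.4% of all genes, with a median range of 0.24 against 0.33. It was under 0.5 for 91.3% of the 138 other ribosome biogenesis genes (median 0.265). For genes in the members' range of levels the share was 81.7% (median 0.29). Dimmer probe sets of Bop1 and Polr1a ranged by up to 1.96 and 0.95. The narrowest was Bysl, a 40S assembly factor also called bystin, at 8.92, 8.92 and 8.91 in controls and 8.93, 8.86 and 8.89 in irradiated cultures. The widest after Nop56 were Rrs1 and Dkc1, with ranges of 0.72 and 0.65. Rrs1 stood at 10.30, 9.97 and 9.58 in controls and 10.07, 9.94 and 9.85 in irradiated cultures, lowest in experiment 3 in both arms, with a difference from experiment 1 of -0.47 ± 0.14 that did not pass (limma, adjusted p = 0.141) except with an intensity trend (adjusted p = 0.0299 by limma). Dkc1 was at -0.39 ± 0.13 (limma, adjusted p = 0.192) in the same contrast. Wdr12 stood at 9.00, 8.93 and 8.65 in controls and 9.08, 8.87 and 8.81 in irradiated cultures, with experiment 3 lowest in both arms (-0.31 ± 0.10, limma adjusted p = 0.177). Tsr1 stood at 10.16, 9.97 and 9.74 in controls and 9.93, 10.03 and 9.83 in irradiated cultures (-0.26 ± 0.12, limma adjusted p = 0.292).

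Between experiments 3 and 1 the roles had medians of both signs, and Nop56 was the one member called. All 4 box H/ACA members were lower in experiment 3 than in experiment 1 (median -0.11), while 3 of the 4 box C/D members were higher (median 0.22), Nop56 among them, with Rrp9, the U3-specific protein, at 0.27 ± 0.09 (limma, adjusted p = 0.189), Nop58 at 0.17 and Fbl at -0.03. Rrp9 stood at 7.62 and 7.63, 7.77 and 7.74, and 7.89 and 7.90 in experiments 1, 2 and 3, so its experiments do not overlap although the steps are small. Such separation was not particular to box C/D members. Experiments were also apart for Rrs1, Wdr12, Noc3l and Utp15, whose levels fell from experiment 1 to 3. Bop1 and Wdr43 had separate experiments without a steady order. The share of all genes with separate experiments was not counted. Of the large-subunit members 6 were lower and 4 higher, and of the small-subunit members 8 were lower and 3 higher. Over all 36 the median was -0.06, with 24 lower and 12 higher, against a median of -0.02 over all genes, of which 54.0% were lower, and of -0.075 over genes in the members' range of levels, of which 64.7% were lower. The member median was -0.0396 with quantile normalization and -0.04 on control arrays alone.

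The rest of the pathway was read from a list of 140 further genes, of which 138 were measured. For irradiation 83 were positive and 53 negative (median 0.02, and 0.00 with median centring), and 0 passed the limma test, with 1 at an unadjusted p under 0.05. That one was Mdn1, the giant ATPase that strips factors from 60S particles, at 6.93, 6.85 and 6.83 in controls and 7.20, 7.03 and 6.96 in irradiated cultures (0.19 ± 0.08, limma adjusted p = 0.929). The next by p were the small-subunit factors Heatr1 (0.18 ± 0.08), Nop9 (0.16 ± 0.08) and Pwp2 (0.15 ± 0.08), each higher in all 3 pairs. Of the 47 large-subunit genes 30 were positive, of the 46 small-subunit genes 27, and of the 14 exosome genes, whose products trim precursor RNA, 9. The 14 genes of the polymerase I machinery had 9 positive, the 10 genes of small nucleolar particle assembly 5 positive and 5 negative, and the 7 genes of the MYC family and its partners 3 positive and 4 negative.

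Of the upstream regulators, Myc, Ubtf and Rrn3 did not pass for irradiation. Myc stood at 9.43, 9.79 and 10.14 in controls and 9.29, 9.88 and 9.77 in irradiated cultures (-0.14 ± 0.11, limma adjusted p = 0.933). Ubtf, the factor that keeps ribosomal DNA open, stood at 9.37, 9.29 and 9.56 in controls and 9.49, 9.39 and 9.44 in irradiated cultures (0.03 ± 0.09). Rrn3, which recruits the polymerase and responds to growth signals, stood at 9.12, 9.09 and 9.01 in controls and 9.01, 9.07 and 8.98 in irradiated cultures (-0.05 ± 0.08). Between experiments 3 and 1, Myc was at 0.59 ± 0.13 and did not pass (limma, adjusted p = 0.0760).

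Between experiments 2 of the 138 genes were called, both higher in experiment 3 than in experiment 1, and 104 of the 138 (75.4%) were lower without being called (median -0.10). Of all genes 2.07% were called higher in that contrast, and 54.0% were lower, called or not. For genes in the members' range of levels these shares were 3.46% and 64.7%. Taf1d, a subunit of the selectivity factor that places RNA polymerase I, stood at 8.52 and 8.33 in experiment 1, 9.31 and 9.18 in experiment 2, and 9.79 and 9.83 in experiment 3, a difference of 1.39 ± 0.10 (limma, adjusted p = 0.00278). It was also called between experiments 2 and 1 (0.82 ± 0.10, limma adjusted p = 0.0414), a call that ended with the mean of its probe sets (0.65, limma adjusted p = 0.12). Mxd1, which competes with MYC for MAX, stood at 7.10 and 7.08, 7.76 and 7.74, and 8.53 and 8.25, a difference of 1.30 ± 0.11 (limma, adjusted p = 0.00463). With the brighter probe sets alone the count of called genes was 9, and with an intensity trend 13. The shares of all genes called in those settings are not given here, so these counts are not read as a trait of the pathway.

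**Figure D4:**
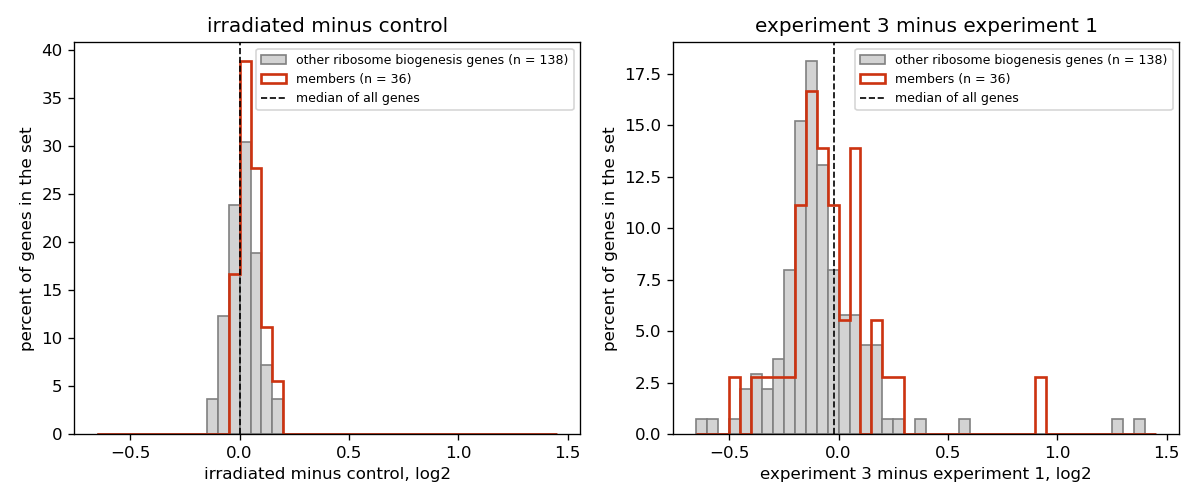
Share of genes (percent, vertical axis) by log2 difference (horizontal axis, bins of 0.05) for irradiated minus control (left) and experiment 3 minus experiment 1 (right), with the 36 members as a red outline, the 138 other ribosome biogenesis genes in grey and the median of all genes as a dashed line. On the left both sets lie within 0.20 of 0, and on the right Nop56 stands alone among members at 0.94 with Taf1d and Mxd1 beyond it.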

How the data were processed

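RNA of 6 cultures was measured on Affymetrix arrays, 3 irradiated and 3 control, paired by experiment as the series design states. Deviations of paired arrays correlated over probe sets with r = 0.629, 0.142 and 0.505. Irradiated culture 2 had r = 0.153 with control culture 3, so the values do not single out pair 2. The other unpaired values lay between -0.539 and -0.012. The deposited values are log2 levels, which the authors gave for every probe set on all arrays. Per the submitters' processing notes the tools were RMA, limma and affy, without versions, and the log base 2 is what RMA gives. The number of arrays limits the precision. The 64 control probe sets were left out, which leaves 45037 tested. Of these 34945 have 1 gene symbol in the platform annotation, 932 several and 9160 none here. All 36 members have a current RefSeq symbol.

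The test was limma 3.58.1 in R 4.3.3 (lmFit, eBayes) with arm and experiment as fixed terms, two-sided, with Benjamini-Hochberg adjustment over all tested probe sets and a threshold of 0.05. It was also run on data simulated from its own variances, with planted changes larger than any irradiation difference of the members. That run does not tell how well differences as small as those of the members would be found. Errors beside differences are the fit's SE, which limma moderates with the spread of all probe sets. Pathway and marker lists, the members and the rule for genes given with all values (lowest p, largest experiment contrasts, core members) were chosen with earlier results of these data known. Genes with no overlap and second probe sets were singled out after their values were seen. Alternatives were quantile normalization, median centring, a filter at the median mean level, an intensity trend, a robust prior, array weights, the mean of a gene's probe sets, no or a random block, no arm term, 1 arm alone, and leaving out each experiment. Protein sequences were not used here.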

Additional observations from a re-analysis of the deposited data

How the results depend on the processing

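The counts of 0 called members and 0 called other genes for irradiation held under every alternative run, and the member median lay between 0.0175 and 0.0675 when 1 replicate pair was left out. With no replicate block the median was 0.04 and 0 members were called, and a random block gave the same numbers. The median could not change here, since each experiment holds 1 array of each arm. Only the calls could change, and the pairing changed no call. Between experiments 3 and 1 the member median was -0.0625, and it was -0.0396 with quantile normalization, -0.0475 with median centring, -0.0525 with the mean of probe sets, -0.04 on control arrays alone and -0.05 on irradiated arrays alone. Between experiments 2 and 1 it was -0.0275, and -0.005 on control arrays alone. The filter on level, the intensity trend and the mean of probe sets each called 1 member between experiments 2 and 1, Nop56. Between experiments 3 and 1 the trend called 2 members (Nop56, Rrs1) and the mean of probe sets 2 (Nop56, Bop1), and between experiments 3 and 2 the trend called 1. Of the other genes, the filter called 2 and the trend 3 between experiments 2 and 1, the filter 9, the trend 13 and the fit with no arm term 4 between experiments 3 and 1, and the trend 2 between experiments 3 and 2. Shares of all genes called under each alternative are not given here, so these counts do not set members or pathway apart from other genes. Nop56 kept its call between experiments 3 and 1 under all tested alternatives (0.92 on control and 0.96 on irradiated arrays alone, untested). All alternatives were planned. Dim probe sets and 3 arrays per group limit what can be seen.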
